A study of Bos indicus with 8 samples.

Results

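The nuclear genes of the mitochondrial respiratory chain and ATP synthase were compared between vitrified-warmed Bos indicus blastocysts and uncooled control blastocysts. Genes were taken by symbol from the platform annotation: those starting with NDUF, UQCR, ATP5, COX4, COX5, COX6, COX7 or COX8, and SDHA, SDHB, SDHC and SDHD. This gave 84 genes on 128 probes, of 15229 named genes and 43794 gene probes on the array. By complex there were 36 genes of complex I, 4 of complex II, 7 of complex III, 17 of complex IV and 15 of complex V, the ATP synthase. The other 5 genes are no subunits: NDUFAF1, NDUFAF3 and NDUFAF4 are assembly factors of complex I, ATP5S is the coupling factor B protein, and COX4NB shares only the start of its symbol with cytochrome c oxidase. The rule uses symbols and no measured value.

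Both groups were embryos produced in vitro from abattoir oocytes and Bos indicus semen, and graded as grade I between 144 and 156 h after insemination. The vitrified group went through 15% ethylene glycol, 15% dimethylsulfoxide and 0.5 M sucrose onto a Cryotop, a thin strip that carries embryos in a minimal volume, stayed in liquid nitrogen for at least 30 min and was warmed through 1 M sucrose. The control group waited on the bench in holding medium at the same time, and both groups were then cultured for 4 h. Only embryos of normal appearance were kept, so embryos that failed after warming are not represented, and each pool held 10 embryos. RNA was amplified in T7 rounds, and each of 8 two-colour arrays on 2 slides carried 1 vitrified and 1 control pool, with the dyes swapped between neighbouring areas. The 4 neighbouring pairs were called pair 1 and pair 2 on slide 1 and pair 3 and pair 4 on slide 2. They were taken as the replicates (n = 4) of every mean ± SD given below. The labels instead number the arrays as biological replicates 1 to 4, each number on both slides. By these labels pairs 1 and 3 share numbers 1 and 2, and pairs 2 and 4 share numbers 3 and 4. The 4 pairs may therefore not be independent. Values are log2 ratios of vitrified over control, so that a value above 0 is a higher signal in vitrified embryos.

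The respiratory chain passes electrons from NADH (complex I) and succinate (complex II) through coenzyme Q, complex III and cytochrome c to oxygen at complex IV, and complexes I, III and IV pump protons across the inner mitochondrial membrane. Complex V lets the protons flow back and makes ATP. Most subunits are encoded in the nucleus, and a small set of core subunits of complexes I, III, IV and V is encoded by the mitochondrial genome. In cattle and mouse embryos oxidative phosphorylation supplies most of the ATP before compaction, and at the blastocyst stage glycolysis gains weight while the trophectoderm consumes oxygen to drive the sodium pump that fills the cavity.

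Of the genes on the list, 83 could be tested, by 127 probes. The exception was COX7A1, whose only probe was above background on 0 of 8 arrays in both channels. The signal was high for most of the list: 107 probes were above background in all 16 channels (8 arrays with 2 dyes each), which is 83.6% of the list against 31.9% of the probes of all named genes. A further 4 probes were above background in 15 channels, 12 in 14 and 4 in 1 to 13. Over whole arrays the median intensity was 106.5 to 153.2 (Cy5) and 149.1 to 243.3 (Cy3). The share of all probes over background was 72.3% to 79.2% for 7 arrays but 28.0% for slide 2 area 1, which belongs to pair 3, and 76.4% there with outlying negative control spots left out. This array limits the shares above background in all 16 channels, including the 31.9% of all named genes. By the filter for testing, 127 of 128 probes on the list and 34912 of 43794 gene probes passed. Without pair 3, 13 of the 83 genes changed sign and 0 passed the test. Transcripts of the mitochondrial genome itself were not analysed here, since the annotation names 0 of the 26 symbols looked for.

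Respiratory chain transcripts differed little between vitrified and control embryos, and no probe on the list passed the test. By the brightest tested probe of each gene, the largest mean ratios on the list were positive: NDUFA13 at 0.36 ± 0.57, NDUFA10 at 0.32 ± 0.18, NDUFA3 at 0.27 ± 0.18, SDHA at 0.26 ± 0.19, UQCR at 0.24 ± 0.25 and UQCRQ at 0.20 ± 0.19. By that probe these 6 genes were the only ones on the list beyond 0.2 in either direction. They made up 7.23% of the 83, against 14.4% of the 13136 tested named genes. The lowest mean by brightest probe was that of ATP5G3, at -0.18 ± 0.33. NDUFS4 of complex I was at -0.06 ± 0.11 by its brightest probe and at -0.205 ± 0.204 by its second. In limma's moderated test over the 4 pairs, 0 of 34912 probes had a Benjamini-Hochberg adjusted p under 0.05 (0%), and 0 of the 127 probes on the list. The smallest adjusted p was 0.464 over all probes and 0.507 on the list. At an unadjusted p under 0.05 there were 10 of 127 probes, 8 above and 2 below 0, which is 7.87% and close to the 7.7% of all probes.

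The 95% intervals of limma show how large a difference these 4 pairs leave room for. Each of the 83 intervals lay within 2-fold in both directions, and 80 lay within 1.5-fold. The half-width of the interval was 0.20 in the median, from 0.084 to 0.67. For 5 genes (6.02%), NDUFA10, NDUFA3, NDUFS6, SDHA and ATP5L, the interval did not include 0 before adjustment. All of them lay above 0. Among the 13136 tested named genes, 590 above 0 and 659 below 0 had an unadjusted limma p under 0.05. A lower share of cells that carry a transcript and less of it in each cell cannot be told apart in pooled embryos.

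Taken as a list, the median ratio of the 83 genes (by the brightest tested probe of each) was 0.016, with quartiles at -0.042 and 0.089 and a range from -0.18 to 0.36. The median over all tested named genes was 0.0044. On the list, 52 genes (62.7%) lay above 0 and 31 below after loess normalization, but only 26 (31.3%) lay above 0, with a median of -0.054, when the arrays were centred on their median instead. Among all named genes those shares were 52.2% and 48.2%. The list median was 0.056 in pair 1, 0.062 in pair 2, -0.019 in pair 3 and -0.0050 in pair 4. So the pairs of slide 1 were above 0 and those of slide 2 slightly below. The median of slide 1 alone was 0.075 and that of slide 2 alone 0.0023, and leaving out pair 3 gave 0.028, with 0.00075 for all named genes. The SD of the 4 pair medians, 0.042, exceeded the overall median.

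**Figure D1:**
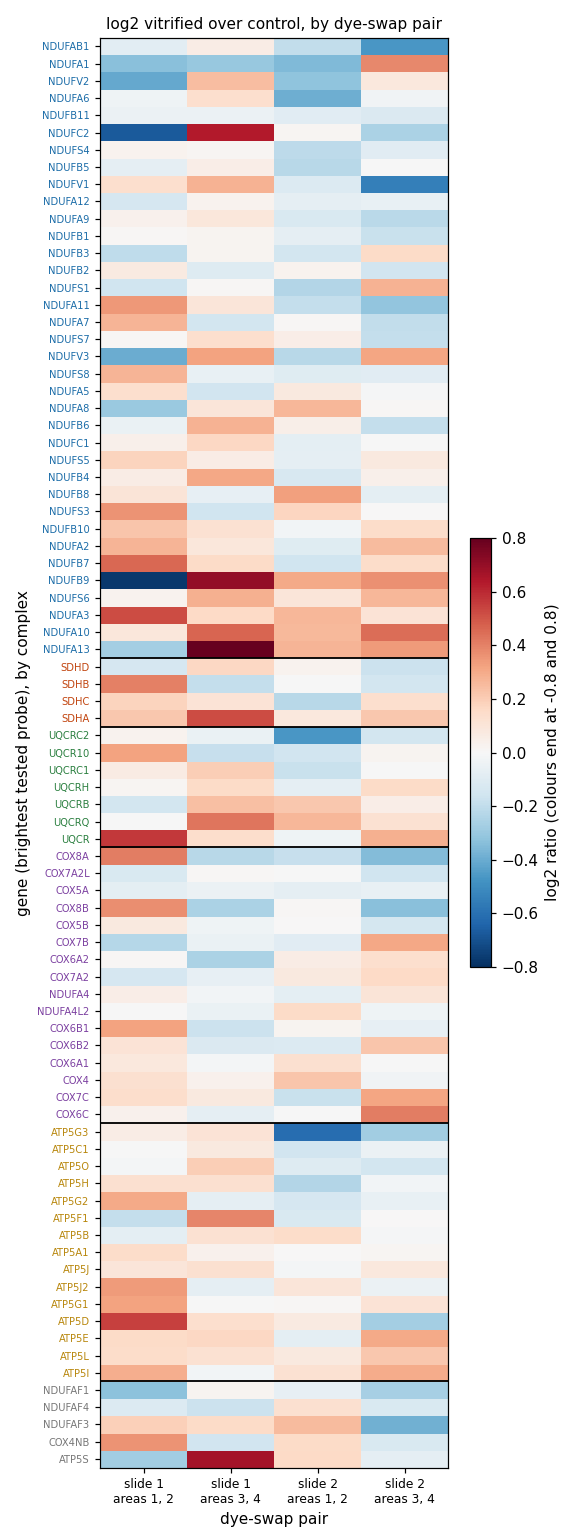
Log2 ratio of vitrified over control of the 83 tested genes (rows, by complex and then by mean ratio) in the 4 dye-swap pairs (columns), red above 0 and blue below, with colours ending at -0.8 and 0.8. Few rows keep 1 colour across all 4 columns: 6 genes were above 0 and 2 below 0 in every pair.

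The same sign in all 4 pairs was seen for 16 of 127 probes on the list, 11 above and 5 below 0. That is 12.6%, against 15.9% of all tested probes. By brightest probe these were NDUFA10, NDUFA3, NDUFS6, SDHA, ATP5A1 and ATP5L above 0 and NDUFB11 and COX5A below 0. On the 8 single arrays, where the dye effect does not cancel, 1 of 127 probes kept its sign (0.787%, against 2.85% of all probes). This was the second brightest probe of COX7A2L, below 0 on 8 of 8 arrays.

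Complex I oxidises NADH and is built from a peripheral arm, which holds the flavin and the iron-sulfur clusters, and a membrane arm, which pumps. Its 36 genes had a median of 0.0031, 19 above and 17 below 0, and -0.074 under median centring. The 15 genes of the peripheral arm had a median of -0.015 and the 20 of the membrane arm 0.027, a difference far inside the spread of single genes. The 6 core subunits on the list had a median of -0.013 and the 30 accessory subunits one of 0.0089. All 4 of these medians changed sign when 1 pair was left out: the peripheral arm was at 0.019 without pair 4, the membrane arm at -0.015 without pair 2, the core subunits at 0.012 without pair 3 and the accessory subunits at -0.026 without pair 2.

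NDUFA10, an accessory subunit of the membrane arm with a nucleoside kinase fold, had ratios of 0.09, 0.47, 0.26 and 0.45 in pairs 1 to 4. It was above 0 on 7 of 8 arrays, lowest in pair 1, with a mean of 0.32 ± 0.18 (1.24-fold, adjusted p = 0.507 in limma). Its other probes were at 0.17 ± 0.11 and 0.08 ± 0.05, also above 0 in every pair but lower. NDUFA3, a small membrane arm subunit, was at 0.52, 0.16, 0.27 and 0.11, highest in pair 1 and above 0 in each (0.27 ± 0.18, adjusted p = 0.561), and its other probe was at 0.21 ± 0.11. For NDUFS6, a zinc-binding subunit of the peripheral arm needed for late assembly, the ratios were 0.03, 0.29, 0.10 and 0.26. Pairs 2 and 4 were the higher ones, and the mean was 0.17 ± 0.12 with an adjusted p of 0.626.

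The next members of complex I by p were closer to 0 or less even between pairs. NDUFB10 and NDUFB11 both sit in the distal membrane arm. NDUFB10 had ratios of 0.22, 0.12, -0.02 and 0.15, above 0 except in pair 3 (0.12 ± 0.10, adjusted p = 0.693). NDUFB11, encoded on the X chromosome, had -0.05, -0.05, -0.09 and -0.12, the narrowest spread among the named complex I genes (-0.08 ± 0.03, adjusted p = 0.708), and -0.13 under median centring. NDUFAB1, the mitochondrial acyl carrier protein, which also serves fatty acid synthesis, was at -0.09, 0.06, -0.20 and -0.47. Its mean of -0.17 ± 0.22 (adjusted p = 0.768) rested mostly on pair 4. NDUFA2, a peripheral arm subunit with a thioredoxin-like fold, was at 0.27, 0.09, -0.10 and 0.25, below 0 in pair 3 alone (0.13 ± 0.17, adjusted p = 0.789), and its other probe was at 0.10 ± 0.20. NDUFA13, a membrane arm subunit also known as GRIM-19 for a role in cell death, was at -0.27, 1.12, 0.27 and 0.34. The value in pair 2 was far above the others, so that the largest mean on the list, 0.36 ± 0.57, had an adjusted p of 0.811 and was 0.11 without pair 2.

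Complex II oxidises succinate, is shared with the tricarboxylic acid cycle and is encoded wholly in the nucleus. SDHA, its flavoprotein, had ratios of 0.21, 0.52, 0.08 and 0.21. All 4 pairs were above 0, pair 2 most of all (0.26 ± 0.19, adjusted p = 0.573 in limma). A dim second probe of SDHA, which exceeded background for 4 vitrified and 2 control signals of 8, was at -0.03 ± 0.09. SDHB, the iron-sulfur subunit, was at 0.40, -0.19, -0.0018 and -0.15, high in pair 1 and at or below 0 in the others (0.02 ± 0.27, adjusted p = 0.988). The membrane anchors did not follow SDHA either. SDHC was at 0.18, 0.11, -0.22 and 0.13, with a mean of 0.05 ± 0.18 (-0.034 under median centring). SDHD was at -0.13, 0.16, 0.03 and -0.17, with a mean of -0.03 ± 0.15, while its second probe was at 0.11 ± 0.07. The median of the 4 genes was 0.032, and -0.052 under median centring.

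Complex III passes electrons from coenzyme Q to cytochrome c. Of its 7 genes 6 lay above 0, with a median of 0.062, which dropped to 0.0069 under median centring. UQCR and UQCRQ are small subunits of the complex. UQCR was at 0.57, 0.14, -0.03 and 0.29, highest in pair 1 and just below 0 in pair 3, with a mean of 0.24 ± 0.25 (1.18-fold, adjusted p = 0.698). It had the smallest adjusted p on the list in the fit by the labels' replicate numbers, 0.137, where 22 of 127 probes on the list (17.3%) and 14.8% of all probes had an unadjusted p under 0.05. UQCRQ was at -0.0002, 0.43, 0.27 and 0.12, near 0 in pair 1 and above 0 in the others (0.20 ± 0.19, adjusted p = 0.655).

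The other named genes of complex III spread around 0. UQCRC2, a large core protein of the matrix side, was the lowest, at 0.03, -0.05, -0.47 and -0.15. Pair 3 was apart from the rest, and the mean was -0.16 ± 0.22 (adjusted p = 0.784). UQCRB, the subunit beside the quinone pocket, was at -0.15, 0.24, 0.22 and 0.05, with a mean of 0.09 ± 0.18. UQCRH, the hinge protein that meets cytochrome c1, was at 0.02, 0.15, -0.07 and 0.15, with a mean of 0.06 ± 0.11, and at -0.044 in the authors' deposited table.

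**Figure D2:**
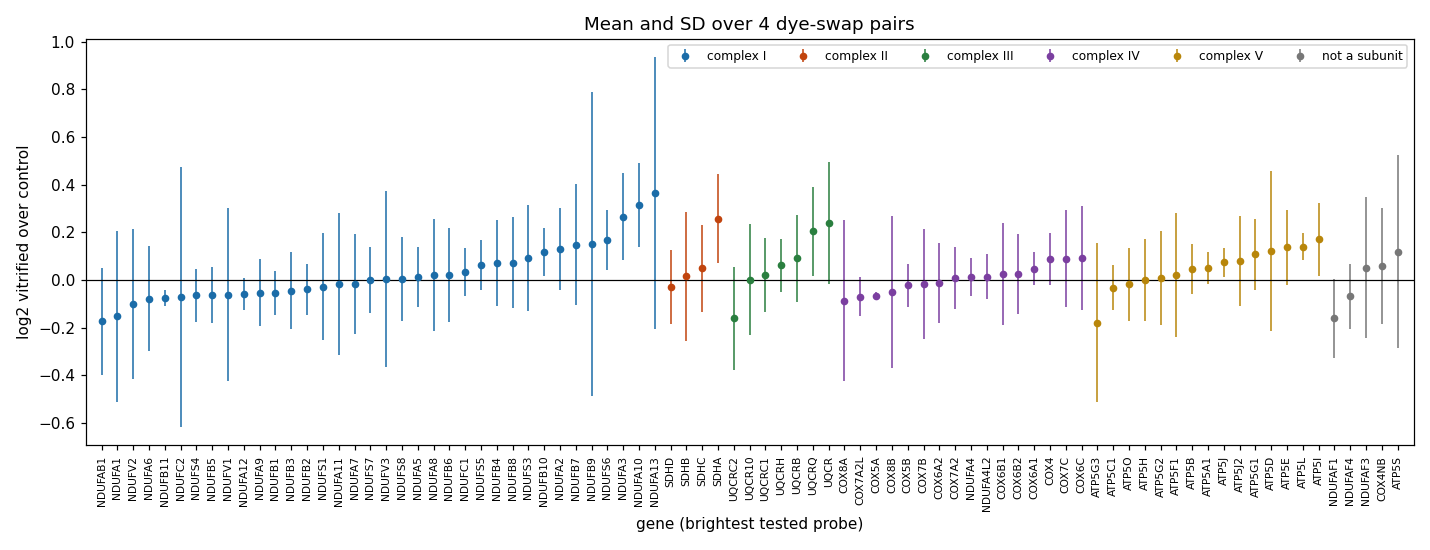
Mean log2 ratio of vitrified over control (points) and SD over the 4 dye-swap pairs (lines) of each of the 83 genes, grouped by complex and ordered by mean within it. Most lines cross 0, the longest being those of NDUFB9, NDUFA13 and NDUFC2, and the 16 genes of complex IV lie between -0.086 and 0.093.

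Complex IV, cytochrome c oxidase, showed the narrowest range of the complexes. Its 16 tested genes had means between -0.086 and 0.093, a median of 0.011 (-0.046 under median centring), 9 above and 7 below 0, and 0 beyond 0.2. COX5A, a nuclear subunit on the matrix side, was at -0.08, -0.05, -0.07 and -0.06. These 4 values had the smallest spread of any named gene (-0.07 ± 0.02, adjusted p = 0.743). Its 4 probes had means from -0.08 to -0.05, and the value was -0.15 under median centring and -0.12 in the authors' deposited table. COX7A2L, a subunit-like factor that joins complexes III and IV into supercomplexes in mouse, was at -0.12, 0.01, -0.01 and -0.16 by its brightest probe (-0.07 ± 0.08, adjusted p = 0.827). Its second brightest probe was at -0.11, -0.05, -0.08 and -0.15, below 0 throughout (-0.10 ± 0.04, adjusted p = 0.641 in limma), and the third was at -0.16 ± 0.16.

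On the other side of 0, COX4, as the annotation lists it, encodes the subunit that binds adenine nucleotides. It was at 0.13, 0.03, 0.22 and -0.03, with a mean of 0.09 ± 0.11 (adjusted p = 0.798). COX7C, a small membrane subunit, was at 0.14, 0.08, -0.18 and 0.32, below 0 in pair 3 alone (0.09 ± 0.20). COX6A1, which sits at the dimer interface, was at 0.08, -0.02, 0.13 and -0.0046, with a mean of 0.05 ± 0.07 that turned to -0.037 under median centring.

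Several subunits of complex IV come as a common form and a form restricted to heart and skeletal muscle, testis or low oxygen. The muscle form COX6A2 exceeded background for 2 vitrified and 4 control signals of 8 and was at -0.01 ± 0.17. The muscle form COX7A1 was above background on none, as given above, while the common COX7A2 was above it on all 8 and stood at 0.01 ± 0.13. NDUFA4L2, a form induced by low oxygen, exceeded background for 4 vitrified and 3 control signals of 8. Its ratio was 0.015 ± 0.09, against -0.16 in the authors' deposited table, and its common partner NDUFA4 was at 0.01 ± 0.08.

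The other forms were above background on at least 7 of 8 arrays in each channel. COX6B2, the testis form, was above it on 7 arrays in each channel, with a low mean log2 intensity of 7.20. Its ratio was 0.03 ± 0.17, and the common COX6B1 was at 0.03 ± 0.21. COX8B, the muscle form, and COX8A, the common form, were above background on all 8 arrays. COX8A was at 0.41, -0.22, -0.18 and -0.35 and COX8B at 0.37, -0.26, 0.01 and -0.33. Both were high in pair 1 and low in pairs 2 and 4, with means of -0.09 ± 0.34 and -0.05 ± 0.32. COX7B, on the X chromosome, was at -0.23, -0.06, -0.09 and 0.31, with a mean of -0.02 ± 0.23. No form, common or restricted, passed the test.

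Complex V had 12 of its 15 genes above 0 and 3 below, with a median of 0.051, and -0.035 under median centring. By part of the enzyme the medians were 0.051 for the 5 genes of the F1 head, where ATP is made, 0.012 for the 4 of the peripheral stalk and 0.0090 for the 3 that encode the c subunit of the membrane rotor. The highest, 0.14, was that of ATP5I, ATP5L and ATP5J2, which encode the small membrane subunits e, g and f that shape the dimers of the enzyme. The order of the other parts rested on single pairs. Without pair 3 the median was 0.066 for the F1 head, 0.074 for the stalk and 0.058 for the c subunit, while the stalk was at -0.065 without pair 2 and the c subunit at -0.089 without pair 1. The small membrane subunits stayed between 0.12 and 0.16 with any 1 pair left out. Their median by pair was uneven too, at 0.29, -0.023, 0.096 and 0.21 in pairs 1 to 4.

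ATP5L was at 0.15, 0.12, 0.08 and 0.21, above 0 throughout (0.14 ± 0.06, 1.10-fold, adjusted p = 0.539 in limma), and at 0.058 under median centring. ATP5I was at 0.29, -0.02, 0.12 and 0.30, below 0 in pair 2 alone, with a mean of 0.17 ± 0.15 (adjusted p = 0.66). ATP5E, the epsilon subunit of the central stalk, was at 0.16, 0.17, -0.08 and 0.30, below 0 in pair 3 alone (0.14 ± 0.16, adjusted p = 0.748). ATP5G1, which encodes 1 of the precursors of the c subunit, was at 0.32, -0.0060, 0.0074 and 0.11, high in pair 1 (0.11 ± 0.15). Its other probes were at 0.12 ± 0.17 and 0.10 ± 0.05, the latter above 0 in every pair (adjusted p = 0.634 in limma). ATP5J, coupling factor 6 of the peripheral stalk, was at 0.10, 0.13, -0.02 and 0.09. Its mean of 0.07 ± 0.06 turned to -0.012 under median centring.

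**Figure D3:**
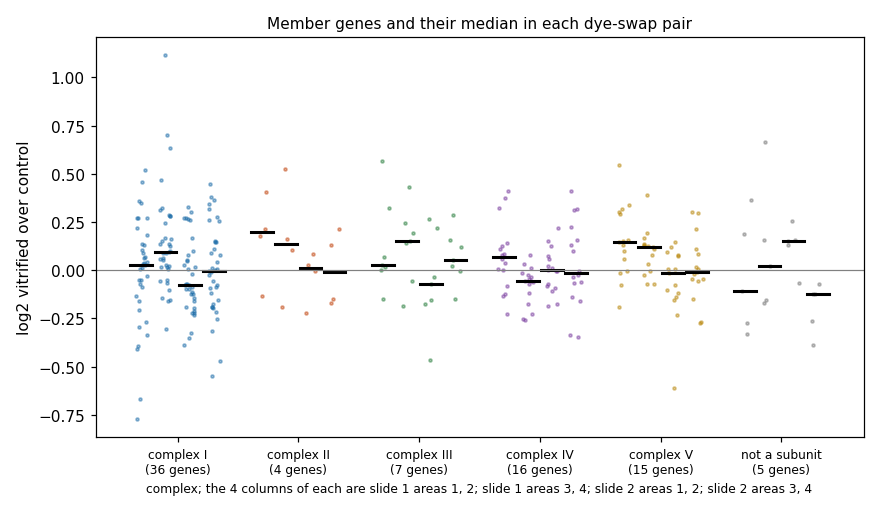
Log2 ratio of vitrified over control of each gene (points) and the median (bars) in each of the 4 dye-swap pairs, by complex, with the pairs ordered from pair 1 to pair 4 in each block. The bars of complex V are at 0.15 and 0.12 in the pairs of slide 1 and at -0.016 and -0.0075 in those of slide 2.

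The medians by complex moved from pair to pair. For complex I they were 0.029, 0.093, -0.075 and -0.0027 in pairs 1 to 4, for complex III 0.027, 0.15, -0.072 and 0.052, and for complex IV 0.068, -0.056, 0.00011 and -0.016. Those of complex II were 0.20, 0.14, 0.014 and -0.0076. Pair 3 gave the lowest median for complexes I, III and V, and pair 2 for complex IV. Without pair 3 the median of complex II was 0.081 and that of complex I 0.0020. Without pair 1 complex II was at 0.0068 and complex V at 0.018, and without pair 4 complex I was at 0.041 and complex III at 0.031. Leaving out 1 pair turned the sign for complex I (-0.037 without pair 2) and for complex IV, which was -0.00074 without pair 1, -0.0013 without pair 3 and -0.0062 without pair 4.

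The genes that are no subunits did not pass either. NDUFAF1, an assembly chaperone of complex I, was at -0.33, 0.02, -0.06 and -0.27, lowest in pairs 1 and 4, with a mean of -0.16 ± 0.16 (adjusted p = 0.711) and above 0 on 1 of 8 arrays. NDUFAF4 was at -0.11, -0.17, 0.13 and -0.12, with a mean of -0.07 ± 0.14. NDUFAF3 was at 0.19, 0.16, 0.25 and -0.39, where pair 4 was opposite to the rest, with a mean of 0.05 ± 0.30 (-0.032 under median centring).

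Some genes differed strongly within single pairs and in opposite directions. NDUFB9, a membrane arm subunit of the LYR family, was at -0.77, 0.70, 0.30 and 0.37. It was low in pair 1 and high in the other 3, with the largest SD on the list, 0.64, and its second probe repeated this at -0.67, 0.70, 0.27 and 0.27. NDUFC2, another membrane arm subunit, was at -0.67, 0.63, 0.01 and -0.25. With NDUFA13 these were the 3 genes on the list whose pairs spanned more than 1 log2 unit, 3.61% against 6.68% of all named genes. The median span was 0.39 on the list and 0.35 over all named genes. Values both above 0.3 and below -0.3 in different pairs were seen for 7 genes on the list (8.43%) and for 10.1% of all named genes.

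NDUFA1, a membrane arm subunit encoded on the X chromosome, was at -0.34, -0.30, -0.35 and 0.38. It was lower in vitrified pools in 3 pairs and higher in pair 4, and its second probe was at -0.32, -0.30, -0.30 and 0.27. XIST, the RNA that silences an X chromosome in female cells, was at -1.22, -1.55, -0.58 and -0.15 in the same pairs, lowest in vitrified pools of pairs 1 and 2 and nearest to 0 in pair 4. Its part in the ratios of NDUFA1, NDUFB11 and COX7B was not tested.

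**Figure D4:**
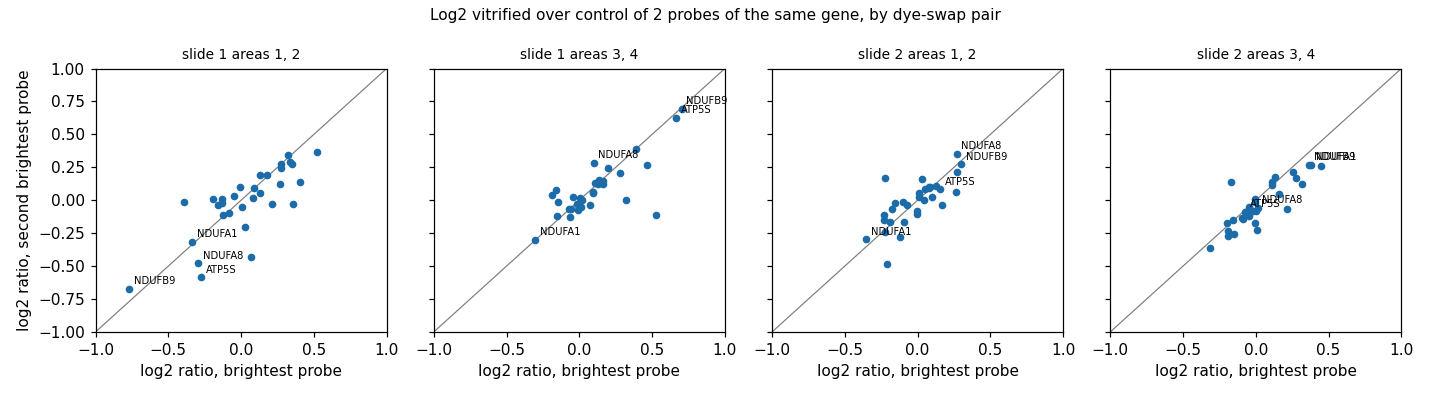
Log2 ratio of vitrified over control by the second brightest tested probe against that by the brightest for the 31 genes with several tested probes, in each of the 4 dye-swap pairs. The points follow the diagonal in each pair (r across genes of 0.78, 0.77, 0.75 and 0.85), and NDUFB9 moves from the lower left in pair 1 to the upper right in pair 2.

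For 31 genes on the list more than 1 probe was tested. The probes of a gene differed by 0.037 in the median and by at most 0.28 in their mean ratio. In 18 of the 31 genes all probes had the same sign. Across genes, which are not independent replicates and share both pools and arrays, the ratios by the brightest and the second probe correlated with r from 0.75 to 0.85 within pairs and 0.69 for the mean of the 4 pairs.

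Differences between the dyes were larger than those between the groups for most of these genes. The dye term, log2 of red over green whatever the sample, had an adjusted p under 0.05 in limma for 77 of 127 probes on the list (60.6%) and 50.3% of all probes. Of the 77 probes, 22 were brighter in red and 55 in green. By gene its median size was 0.13, against 0.062 for the vitrification ratio, and it was the larger value for 54 of 83 genes. NDUFC1, a membrane arm subunit, had the largest dye term, -0.87, and NDUFS7, an iron-sulfur subunit of the peripheral arm, the next, -0.64. On the 4 arrays with the vitrified pool in red, the ratio of NDUFC1 was -1.01, -0.64, -0.98 and -0.71, and on the 4 with it in green 1.09, 0.97, 0.82 and 0.71. Averaged within pairs, this left 0.04, 0.17, -0.08 and -0.0006, a mean of 0.03 ± 0.10.

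**Figure D5:**
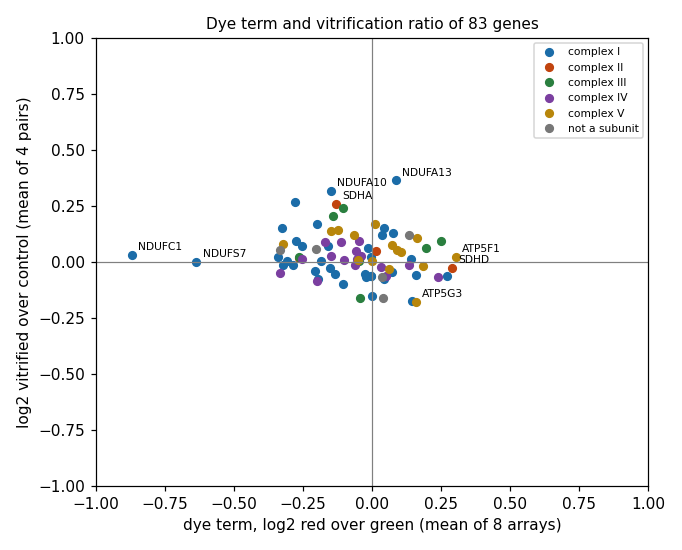
Mean log2 ratio of vitrified over control over the 4 dye-swap pairs against the dye term (log2 red over green, mean of 8 arrays) for the 83 genes, coloured by complex. The dye term reaches -0.87 for NDUFC1 and 0.30 for ATP5F1, while the vitrification ratios stay between -0.18 and 0.36.

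The 2 arrays of a pair resembled each other only once the dye term was taken out. Across the 83 genes, r between the 2 arrays was 0.078, 0.28, -0.21 and -0.0067 in pairs 1 to 4 as measured and 0.88, 0.76, 0.81 and 0.77 with the dye term removed. These arrays share the dye term estimated from them, and genes are not independent. The 2 arrays then gave the same sign for 69, 59, 64 and 61 of 83 genes.

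Slide 2 against slide 1 gave an unadjusted limma p under 0.05 for 7 of 127 probes on the list (5.51%), 1 higher and 6 lower on slide 2, against 3.96% of all probes, and 0 after adjustment. Among them, NDUFV1, which binds NADH, was at 0.13, 0.28, -0.11 and -0.55. ATP5G3, a precursor of the c subunit, was at 0.06, 0.11, -0.61 and -0.28, and NDUFA11, a membrane arm subunit, at 0.35, 0.09, -0.19 and -0.32. Each was above 0 in both pairs of slide 1 and below 0 in both of slide 2. They were named after their values were seen.

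Fitting the 8 arrays with the pair as a random block called 43 of 34912 probes at an adjusted p under 0.05 (0.123%) and 0 on the list, where the smallest adjusted p was 0.28. That fit counts 8 arrays rather than 4 pairs and uses 1 correlation between the arrays of a pair, 0.594, for all probes. With slide as a block over the pairs there were 0 calls.

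Other mitochondrial lists gave 0 calls each. Of 19 genes for electron carriers and coenzyme Q synthesis, 7 lay above 0, with a median of -0.038. Those of smallest p were COQ10B, a coenzyme Q binding protein, at 0.27 ± 0.16 and ETFB, a subunit of the electron transfer flavoprotein, at 0.17 ± 0.10. CYC1, the cytochrome c1 of complex III, which the choice by symbol leaves out, is given for that reason and was at 0.17 ± 0.14. Of 24 assembly factors outside the chosen symbols 10 lay above 0, with a median of -0.010. LYRM7, which matures the iron-sulfur protein of complex III, was at 0.33 ± 0.11 and COX19, a factor for complex IV, at 0.23 ± 0.12, and both were above 0 in 4 of 4 pairs. Their adjusted p in limma were 0.464 and 0.514. At an unadjusted limma p under 0.05, 590 of all 13136 tested named genes lay above 0 and 659 below. Of the 19 electron carrier genes 4 lay above 0 and 1 below at that p. Of the 24 assembly factors there were 2 above 0 and 3 below. Those below included TMEM70 at -0.34 ± 0.22 and LRPPRC at -0.27 ± 0.19.

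The 15 genes of the tricarboxylic acid cycle, which feeds NADH to complex I, had a median of 0.0033 with 8 above 0. The lowest were the isocitrate dehydrogenase subunits IDH3G, at -0.45 ± 0.25 (adjusted p = 0.497), and IDH3B, at -0.15 ± 0.14. The 15 genes of mitochondrial biogenesis had a median of -0.0079 with 7 above 0. Among them PPRC1, a coactivator of nuclear respiratory genes, was at 0.24 ± 0.12 and GABPB1, a subunit of nuclear respiratory factor GABP, at -0.22 ± 0.36. The 24 genes of protein import had a median of -0.017 with 12 above 0. TOMM22, a receptor of the outer membrane, was at 0.15 ± 0.04 and GRPEL1, a cochaperone of the matrix, at 0.18 ± 0.08. At an unadjusted limma p under 0.05 these were the 2 import genes above 0. Below 0 there were 3, of which TIMM8A was the lowest, at -0.41 ± 0.25. Among all 13136 tested named genes 590 lay above 0 and 659 below at that p. The medians of all 5 mitochondrial lists changed sign when 1 pair was left out: they ran from -0.055 to 0.0043 for electron carriers, -0.044 to 0.0059 for assembly factors, -0.028 to 0.015 for biogenesis, -0.096 to 0.028 for the tricarboxylic acid cycle and -0.049 to 0.0075 for import.

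Markers of blastocyst lineages were present, and differed more than the respiratory genes. All 14 trophectoderm markers were tested. Their median was 0.44, 13 of 14 lay above 0, and the pairs were at 0.45, 0.46, -0.048 and 0.51. Single markers were uneven: 9 lay above 0.2, while TFAP2C was at 0.09, CDX2 at 0.10, GATA3 at 0.05, ELF5 at 0.01 and TEAD4 at -0.08. The last 4 had low signal, with mean log2 intensities from 7.17 to 7.49. Of 10 inner cell mass markers 8 were tested, with a median of -0.17, 6 of 8 below 0 and pairs at -0.16, -0.059, 0.049 and -0.43. Those above 0 were POU5F1 at 0.08 and DPPA3 at 0.02. Pair 3 was apart from the others in the trophectoderm markers and above 0 in the inner cell mass markers, where pair 4 was the lowest. Leaving out pair 4 moved the medians to 0.29 and -0.035. No single marker passed the test, and the part of lineage markers in the respiratory ratios was not tested. Markers of other sources had medians near 0, at -0.017 for 9 cumulus and granulosa genes, 0.0071 for 4 oocyte genes and -0.049 for 3 sperm genes. The last 2 medians changed sign when 1 pair was left out (-0.053 to 0.037 and -0.12 to 0.022). Single genes went both ways: the sperm genes SPAM1 and TNP1 were at 0.38 ± 0.17 and -0.19 ± 0.05, and the oocyte gene ZP4 at -0.26 ± 0.18. Their signal was low, with mean log2 intensities of 7.01, 7.16 and 7.01. The 8 primitive endoderm markers had a median of -0.13.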

How the data were processed

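Per the file headers, the deposited scanner files hold the mean intensity and local background of every spot in both channels, not normalized, from a scanning program not given in the sources used here. A table of log2 values, 1 per probe and array, was deposited by the authors too. It was read as vitrified over control from its r (0.68 to 0.83) and slopes (0.94 to 1.31) against the scanner ratios. Its column medians were 0.0031, -0.0012, -0.00032 and 0.0035 for slide 1 and -0.0098, 0.00064, -0.010 and 0.010 for slide 2, and its normalization and centring stay unknown. It served as an alternative.

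Intensities were corrected by normexp (offset 50, median local background) and loess-normalized within arrays, control spots having weight 0 (limma 3.58.1, R 4.3.3). Tested probes, 34912 in all, had a log2 signal above the mean plus 2 SD of 153 negative controls on at least 4 of 8 arrays in either group's channel. The annotation gave 21790 probes 1 symbol, 0 several and 22004 none. It can be old: the RefSeq table of NIAB-ARS_B.indTharparkar_mat_pri_1.0, used for chromosomes only, held 64 of the 84 symbols. Each gene was read by its brightest tested probe.

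Dye-swapped neighbouring areas were averaged with signs turned. The 4 pair means were tested against 0 with lmFit and eBayes and adjusted by Benjamini-Hochberg over all tested probes, with calls under 0.05. The labels call the arrays biological replicates 1 to 4, and each number stands on both slides in 1 orientation. Each pair thus averages arrays of 2 numbers. With the mean and dye term taken out, r was 0.76 between neighbouring areas and -0.253 between other arrays with opposite dyes. Taking out both terms makes these r sum to about 0 for each array, so the -0.253 follows from the 0.76. The 0.76 alone is a hint from the data, beside the design text's dye swap, for the pairing used. Arrays of 1 number have the vitrified pool in 1 dye, and removing both terms forces r between such arrays below 0 on average. Their -0.26, against -0.365 for the rest with dyes alike, therefore cannot show whether they share pools. With the dye term left in, r was 0.45 for 1 number, 0.411 for the rest with dyes alike and 0.113 for neighbouring areas. Nothing says whether pools came from separate cultures, so p-values measure only the spread between these pools. The number of arrays limits precision.

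Members and lists were chosen with earlier results of these data known. Named were the genes of smallest p (8 of complex I, 5 each of III, IV and V, 3 assembly factors), complex II, restricted isoforms with their partners, and 2 per mitochondrial list. Genes with wide spread, large dye terms or slide differences were added after their values were seen. So were NDUFS4, TMEM70, LRPPRC, TIMM8A and the single lineage, sperm and oocyte markers. The fit was tested on simulated data. Alternatives were other fits, background corrections, normalization, filters, probe rules and leaving out each pair.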

Additional observations from a re-analysis of the deposited data

Results flagged for a closer look

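Of 47 groups of 4 values looked at, each set of 4 pairs of a named gene and some measures of the arrays, 2 had a value far from the other 3 by Dixon's 95% limit. Chance alone flags about 1 in 20 groups, or 2.35 of 47. The first was the log2 ratio of NDUFAF3, an assembly factor of complex I, at -0.386 in pair 4 against 0.16 to 0.25 in the other pairs. The second was the percent of probes above background among the arrays with the vitrified pool in Cy5, at 28.0% on slide 2 area 1. With outlying negative control spots left out that array stood at 76.4%, close to the other 7.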

How the results depend on the processing

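No probe on the list passed an adjusted p of 0.05 under any alternative run. Over all probes the pair as a random block, which counts 8 arrays rather than 4 pairs, gave 43 calls against 0. The list median of 0.016 was 0.0746 on slide 1 alone and -0.0542 under median centring, and lay between 0.00584 and 0.0314 when a pair was left out. Median centring also gave -0.0738 for complex I, -0.0459 for complex IV and -0.0347 for complex V, so directions of the list and of these complexes depend on the normalization; the cause was not tested. Of 585 values of the 39 tested genes named by the rule under 15 alternatives, 576 moved by less than their SD over pairs. The other 9, 7 under median centring and 2 in the deposited table, moved by more. Of the 585, 52 changed sign. The 576 cannot be read as robustness, since many could not have moved by more. The fits by replicate numbers, by random block and by slide block keep the same mean ratio in this balanced design. Leaving out a pair or using a single slide cannot shift a mean over these pairs by its SD. Mean in place of median local background was added after seeing the data. Signal near background limits COX6A2, NDUFA4L2 and COX7A1. COX6B2 and UQCRH, with mean log2 intensities of 7.20 and 7.25, had low signal too.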
